A study of Mus musculus with 10 samples.

Results

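This account concerns 42 genes that carry material into and along cilia and guard their base. The set holds 20 genes of intraflagellar transport (IFT), 12 of the BBSome, its assembly and the handling of membrane cargo, and 10 of the transition zone. They were taken from a list by gene symbol, by a rule that uses no measured value although the list was drawn up with earlier results of these data known, and where a gene had more than 1 probe set the brightest on average was read. Of the 42, 39 had a probe set that the array's annotation gives to 1 gene, out of 22180 such genes in all. Arl6 and Arl13b had no probe set under their symbols, and the probe set of Tctn1 is shared with another gene, so these 3 are named here without values. All 39 measured genes lay above the filter on dim genes and so were among the 16635 genes tested.

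RNA came from nasal respiratory epithelium of E16.5 mouse embryos, cut by laser from sections of formalin-fixed, paraffin-embedded tissue, with 1 array per sample. There were 5 wild-type samples (WT 1 to WT 5) and 5 triple knockouts (TKO 1 to TKO 5). The knockouts were miR-34a-/- and also homozygous for deletions of the miR-34b/c and the miR-449a/b/c clusters, and the labels name no Cre or promoter that would limit the loss to a cell type. The WT group held 4 females and 1 male (WT 3) and the TKO group 2 females and 3 males (TKO 2, TKO 4 and TKO 5), so sex was kept in the model, and neither litter nor strain is stated in the labels. Values are log2 RMA values made by the authors, the changes are TKO minus WT from limma with sex in the model, and a gene is called where its adjusted p lies below 0.05. With 5 samples in each group, the number of arrays sets how small a difference can be seen, and p-values measure the spread between these samples.

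Cilia are built at their tip, and IFT is the traffic that carries tubulin and other parts there. The IFT-B complex rides kinesin outward, the IFT-A complex rides dynein back and also brings membrane proteins in, and the BBSome is a coat that links membrane cargo to these trains. The transition zone at the base holds the membrane to the doublet microtubules and acts as a gate. Motile multiciliated cells of the airway, olfactory neurons and most cells with a single primary cilium use these same proteins, which are known as targets of the RFX transcription factors.

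The TKO embryos lack microRNAs that share 1 seed, the stretch by which a microRNA pairs with its targets. It is shown in capitals (bases 2 to 8) in the mature sequences that RefSeq gives for the deleted genes on mouse GRCm38.p6. The mature 5p sequences of miR-34c and miR-449b were not used here.
mmu-miR-34a-5p (chr4:150068473-150068494, plus strand): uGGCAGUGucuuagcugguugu
mmu-miR-34b-5p (chr9:51103610-51103632, minus strand): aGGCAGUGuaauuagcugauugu
mmu-miR-449a-5p (chr13:113037549-113037570, plus strand): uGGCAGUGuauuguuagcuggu
mmu-miR-449c-5p (chr13:113036008-113036028, plus strand): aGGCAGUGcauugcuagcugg

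Many of the 42 genes share a promoter motif that their selection did not use. The X-box, the site bound by RFX factors, was searched in RefSeq's promoter windows (250 bases before to 50 after the start of the gene, mouse GRCm38.p6), on both strands, in a short form, GTTGCC, and a long form with both arms (GTNNCC, then NNN, then GNAAC), where N is any base. The short form stood in 18 of the 37 genes of the list that have a promoter window (48.6%), against 14.1% of 27025 genes, and the long form in 11 of 37 (29.7%), against 2.49%. Those 27025 are all genes with a promoter window, whether or not they were tested on the arrays, and the share among tested genes is not given. Of 9 transition zone genes 6 had the long form, of 12 genes of the BBSome and membrane cargo 3, of 11 IFT-B genes 2, and of 5 IFT-A genes none. In 7 genes the long and the short form overlapped. A match is a string of letters and not a bound site, and a promoter without one says only that these letters are not in the window. The matches below are those of the genes the results turn on and of the clearest transition zone examples, in windows of 30 bases read in the direction of the gene, with the motif in capitals. The first 6 show the long form in genes of different complexes, and Ift27 and Ift88 show the short form.
Bbs7, long form (chr3:36613489-36613518, minus strand): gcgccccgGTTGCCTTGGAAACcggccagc
Bbs4, long form (chr9:59353464-59353493, minus strand): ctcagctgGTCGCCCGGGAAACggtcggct
Ift57, long form (chr16:49699199-49699228, plus strand): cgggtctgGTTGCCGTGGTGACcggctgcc
Mks1, long form (chr11:87853183-87853212, plus strand): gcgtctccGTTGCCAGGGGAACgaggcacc
Tctn2, long form (chr5:124598679-124598708, plus strand): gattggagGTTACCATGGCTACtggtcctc
B9d2, long form (chr7:25680788-25680817, plus strand): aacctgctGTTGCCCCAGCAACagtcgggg
Ift27, short form (chr15:78174073-78174102, minus strand): gggttgatgatgGTTGCCaggagcctgttt
Ift88, short form (chr14:57424080-57424109, plus strand): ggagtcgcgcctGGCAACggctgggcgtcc

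In Bbs7, Ift57, Mks1 and Tctn2 the long form lay 121, 87, 24 and 62 bases before the start of the gene. In Ift57 and Tctn2 the long form, and in Ift88 the short form, matched on the strand opposite the gene. Ift43, Bbs9, Bbs2 and Ttc21b had neither form in their windows. Among measured members with a promoter window, the median log2 change was -0.075 for the 18 with either form and 0.047 for the 16 with neither, a description with no test.

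Of the 39 measured genes, 1 differed between TKO and WT beyond the test's threshold. Ift43, a subunit of IFT-A, fell, and the other 38 did not pass. That is 1 of 39, where 5.51% of all genes tested were called (1.12% lower and 4.39% higher), a share near the background, which says nothing particular about these genes. The log2 changes ran from -0.49 to 0.45, 22 below 0 and 17 above it, with a median of -0.037, against -0.00052 over all genes tested. The median size of a change was 0.12 in both. At an unadjusted p below 0.05 there were 13 of the 39, 9 lower and 4 higher, where the share over all genes was 20.9% (7.72% lower and 13.2% higher).

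The intervals say how large a change these arrays leave room for. For 34 of the 39 genes the 95% interval of the change lay wholly within 1.5-fold either way, as it did for 86.7% of all genes tested. The 5 exceptions were Ift27, Wdr19, Ttc21b, Bbs4 and Bbs7, and the bound farthest from 0, that of Bbs7, was -0.88 on the log2 scale. All 9 measured transition zone genes lay within 1.5-fold.

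**Figure D1:**
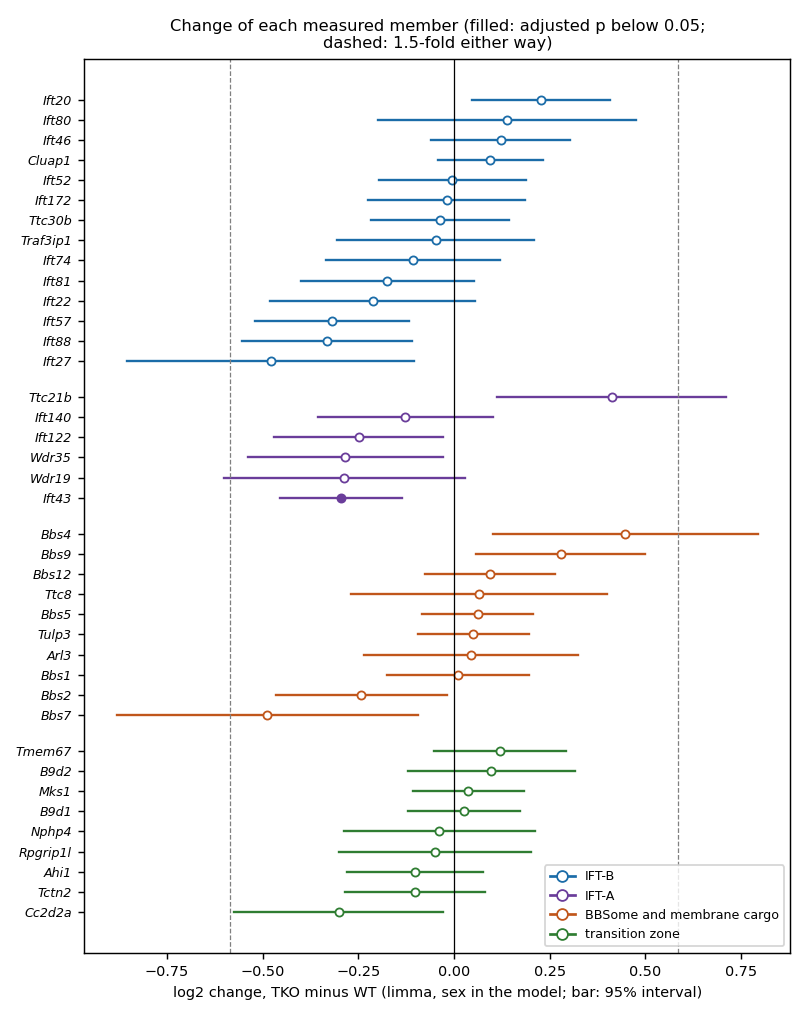
The log2 change (TKO minus WT, limma with sex in the model) of each of the 39 measured genes is on the horizontal axis as a point with its 95% interval, grouped and coloured by complex, with dashed lines at 1.5-fold. Ift43 is the only filled point (called), and 5 intervals cross a dashed line.

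The IFT-A complex had 6 measured genes, of which Ift43 was called, 5 had changes below 0 and 1 above. Their median log2 change was -0.27, against -0.043 for the 14 IFT-B genes. Ift43 was at 10.98, 11.03, 11.18, 11.00 and 10.84 in WT 1 to WT 5 and at 10.73, 10.75, 10.81, 10.75 and 10.61 in TKO 1 to TKO 5. Every TKO array thus lay below every WT array. It was the only gene of the list whose genotypes did not overlap, where 7.6% of all genes tested did not (2.07% lower and 5.54% higher in TKO). The means were 11.01 ± 0.12 and 10.73 ± 0.07 (SD, n = 5 each), and with sex in the model Ift43 fell by 0.30 on the log2 scale, a fold of 1.23 (SE 0.074, limma adjusted p = 0.0394).

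The call of Ift43 rested on the full set of arrays. It was lost when any 1 of 9 arrays was left out (limma adjusted p from 0.0561 without TKO 5 to 0.281 without WT 3) and kept only without WT 5 (adjusted p = 0.0143). Its change stayed between -0.35 and -0.19 in those fits. Without WT 3, the only WT male, it was at its smallest, -0.19.

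Ttc21b, which encodes the IFT-A subunit IFT139, had the only change above 0 in its complex and did not pass. It was at 6.36, 6.54, 6.59, 6.23 and 6.55 in WT and at 7.10, 6.74, 6.99, 6.35 and 6.77 in TKO, so that 4 of 5 TKO arrays lay above all WT arrays and TKO 4 lay among them. Its log2 change was 0.41 (SE 0.14, limma adjusted p = 0.106), and without TKO 4 it was 0.47 and passed (adjusted p = 0.0393), in a fit that called 5.02% of all genes (4.14% higher and 0.878% lower). Over all fits that left out 1 array it ran from 0.31 without TKO 1 (limma adjusted p = 0.323) to 0.62 without WT 3 (adjusted p = 0.067). The remaining IFT-A genes were Ift122, which links the core to the peripheral subunits, at -0.25, Wdr35 (IFT121) at -0.28, Wdr19 (IFT144) at -0.29 and Ift140 at -0.13. Without WT 3, a fit that takes the genotype difference from females alone, Ift122, Wdr35, Wdr19 and Ift140 were at -0.13, -0.15, -0.12 and 0.015. The change of Ift140 was thus no longer below 0 in that fit. Ift122 was at 8.36 ± 0.14 (SD, n = 5) in WT and 8.09 ± 0.17 (SD, n = 5) in TKO, with 3 TKO arrays below the lowest WT array and 2 within the WT range.

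None of the 14 IFT-B genes was called. Ift57 and Ift88, both needed for cilia to form, had log2 changes of -0.32 and -0.33 (limma adjusted p = 0.0678 and 0.0829). Ift88 was at 9.56, 9.60, 9.81, 9.64 and 9.37 in WT and at 9.21, 9.45, 9.44, 9.31 and 9.07 in TKO. It overlapped between genotypes through WT 5 alone, the lowest WT array. Ift57 overlapped in 1 TKO array, TKO 2, at 9.85, while the other 4 lay between 9.53 and 9.70, below the lowest WT value of 9.77.

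Ift27, the small GTPase of IFT-B that helps BBSomes leave cilia, had the lowest change of the complex, -0.48 (SE 0.17, limma adjusted p = 0.133). Its WT arrays were spread widely, from 9.37 in WT 5 to 10.32 in WT 3, and its TKO arrays lay between 9.26 and 9.77. Without WT 5 the changes of Ift27, Ift57 and Ift88 were -0.59, -0.35 and -0.38 and all 3 passed (adjusted p = 0.0175, 0.0392 and 0.0366), together with Ift43, in a fit that called 7.72% of all genes (5.33% higher and 2.39% lower). Without WT 3 the same 3 changes were -0.25, -0.21 and -0.22 and none passed (limma adjusted p = 0.575, 0.383 and 0.413). WT 5 was the WT array with the lowest level of these complexes, as given below.

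Ift20, the IFT subunit that also sits at the Golgi and sorts membrane cargo toward the cilium, had a change above 0. It was at 10.78, 10.85, 10.76, 10.80 and 10.53 in WT and at 10.79, 11.12, 11.07, 11.00 and 11.03 in TKO. All TKO arrays but TKO 1 lay above the highest WT array. Its log2 change was 0.23 (SE 0.083, limma adjusted p = 0.14). Ift22, a small GTPase of the complex, was at -0.21, with TKO arrays from 10.20 in TKO 3 to 11.05 in TKO 4 around a WT range of 10.68 to 10.91. The other 9 IFT-B genes lay between -0.17 (Ift81) and 0.14 (Ift80). They included Ift172 (-0.020), Ift52 (-0.0052), Ift74 (-0.11), Ift46 (0.12), Ttc30b (-0.037), Traf3ip1 (-0.048) and Cluap1 (0.095).

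**Figure D2:**
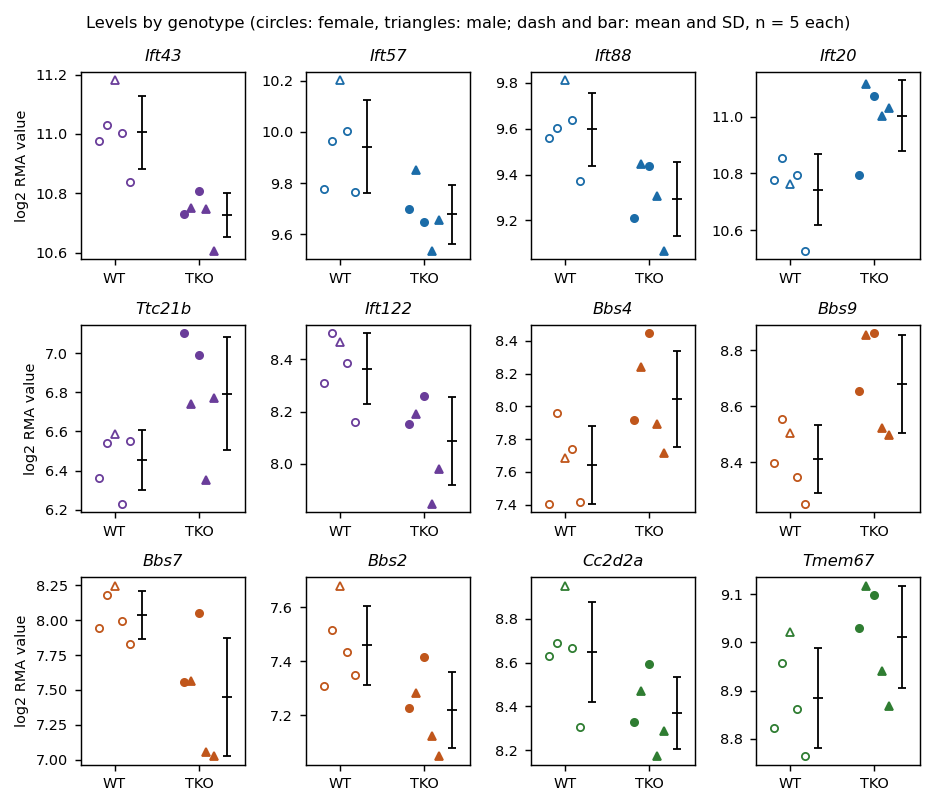
Log2 RMA values of 12 genes on each array (vertical axes, each with its own range) in WT (open) and TKO (filled), with circles for females, triangles for males, and a dash and bar for the mean and SD of 5 arrays. Ift43 does not overlap between genotypes, and the other 11 genes do.

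Within the BBSome the subunits had changes of both signs. Of 10 measured genes of the BBSome and membrane cargo none was called, 8 had changes above 0 and 2 below, and the median was 0.056. Bbs4 and Bbs9, both subunits of the coat, had changes of 0.45 and 0.28, while Bbs7 and Bbs2, which pair with each other in its core, had changes of -0.49 and -0.24 (limma adjusted p = 0.13, 0.138, 0.145 and 0.2). Without WT 3 the signs were the same, with Bbs4 and Bbs9 at 0.55 and 0.37, but Bbs7 and Bbs2 were at only -0.18 and -0.082.

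Bbs4 was at 7.41, 7.96, 7.69, 7.74 and 7.41 in WT and at 7.92, 8.24, 8.45, 7.89 and 7.72 in TKO, so that 2 TKO arrays lay above all WT arrays. Bbs7 was at 7.94, 8.18, 8.25, 7.99 and 7.83 in WT and at 7.56, 7.57, 8.05, 7.06 and 7.03 in TKO. All TKO arrays but TKO 3 lay below the lowest WT array. TKO 3 was the TKO array with the highest Bbs4 and the highest Bbs7, and WT 1 and WT 5 were the lowest WT arrays for Bbs4.

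Each gene alone overlapped between the genotypes, but their log ratio on the same array did not. Bbs4 over Bbs7 was -0.54, -0.22, -0.56, -0.25 and -0.41 in WT and 0.36, 0.67, 0.40, 0.84 and 0.69 in TKO. The means, -0.40 ± 0.16 and 0.59 ± 0.20 (SD, n = 5 each), differed by 0.99 on the log2 scale. This pair was chosen after its values were seen, as the largest difference of all pairs on the list, so no test is given. A ratio within an array shows that 2 genes changed unequally, not which of them changed.

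The same was seen between other genes of 1 complex. Ift20 over Ift88 was 1.15 ± 0.12 (SD, n = 5) in WT and 1.71 ± 0.15 (SD, n = 5) in TKO, with WT arrays from 0.95 to 1.25 and TKO arrays from 1.58 to 1.96. Ttc21b over Ift122 was -1.91 ± 0.20 and -1.29 ± 0.18, and B9d2 over Cc2d2a was -0.64 ± 0.12 and -0.22 ± 0.14. In each of these 3 pairs, also chosen after their values were seen, no TKO array reached the WT range. Of all 741 pairs among the 39 genes, 149 (20.1%) had log ratios that did not overlap between genotypes, where this held for 7.5% of all pairs of genes tested. Bbs9 stood in 21 of its 38 pairs as the gene higher in TKO, Bbs4 in 14 and Ift20 in 13, while Ift122, Ift88 and Ift57 stood as the lower gene in 19, 18 and 17. Pairs share genes and are not independent of each other. How far the close co-variation of these genes, given below, enters that share was not tested.

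**Figure D3:**
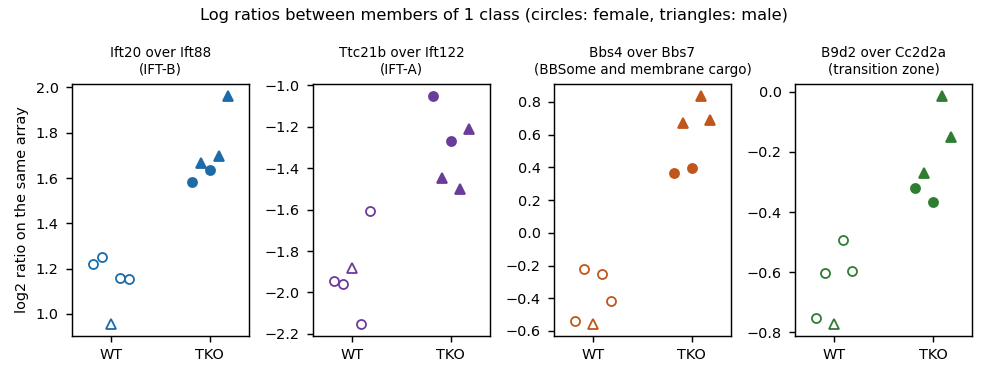
Log2 ratio of 2 genes of 1 complex on the same array (vertical axes, each with its own range) for 4 pairs, WT open and TKO filled, circles for females and triangles for males. In all 4 pairs the 5 TKO arrays lie above the 5 WT arrays.

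The other genes of this class were close to 0. Bbs1, the subunit that binds the membrane GTPase Arl6, was at 0.010, Bbs5 at 0.062, Ttc8 (BBS8) at 0.064 and Bbs12, a chaperonin-like protein that helps the BBSome assemble, at 0.094. Ttc8 ranged from 6.97 in TKO 4 to 7.77 in TKO 3, which encloses all WT arrays. Arl3, the GTPase that releases lipid-modified cargo in the cilium, was at 0.043, and Tulp3, the adaptor that hands receptors to IFT-A, at 0.050.

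Changes in the transition zone were small. None of 9 measured genes was called, 5 had changes below 0 and 4 above, and the median was -0.039. Cc2d2a, a membrane-anchoring component of the gate, had the lowest change, -0.30 (SE 0.12, limma adjusted p = 0.189), and without WT 3 it was at -0.11 (adjusted p = 0.735). It was at 8.63, 8.69, 8.95, 8.67 and 8.31 in WT and at 8.33, 8.47, 8.59, 8.17 and 8.29 in TKO, and the groups overlapped through WT 5. Tmem67 (meckelin) had the highest, 0.12, with 8.89 ± 0.10 (SD, n = 5) in WT and 9.01 ± 0.11 (SD, n = 5) in TKO, and its second, dimmer probe set also had a mean higher in TKO, by 0.23. B9d2 was at 0.097, Mks1 at 0.037, B9d1 at 0.026, Rpgrip1l at -0.050, and Tctn2 and Ahi1 each at -0.10. Mks1 had a narrow TKO range, 8.36 to 8.43, inside its WT range of 8.23 to 8.45. Nphp4 was at -0.039. It lies 2.41 Mb from the deleted Mir34a on the reference, the closest of these genes to a deleted locus for which a position was found, followed by Ift46 and Bbs4 at 6.33 and 8.25 Mb from Mir34b and Mir34c. The part of linked chromosome segments in their values was not tested.

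In the mean over these genes, the embryos of 1 genotype differed among themselves more than the genotypes did, and most of the genes varied together. Genotype changes of opposite sign partly cancel in such a mean, so this does not describe each gene alone. After each gene was centred on its mean over all arrays, the mean over the 39 genes ran from -0.15 in WT 5 to 0.16 in WT 3 and from -0.14 in TKO 4 to 0.098 in TKO 2. The genotype means were 0.023 in WT and -0.023 in TKO. In WT 5 only 4 of the 39 genes lay above their own mean, in TKO 5 6 and in TKO 4 8, against 31 in both WT 2 and WT 3 and 30 in both TKO 2 and TKO 3. In the tissue as captured, whether fewer ciliated cells, less RNA per ciliated cell or something else lay behind this shared variation cannot be told.

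**Figure D4:**
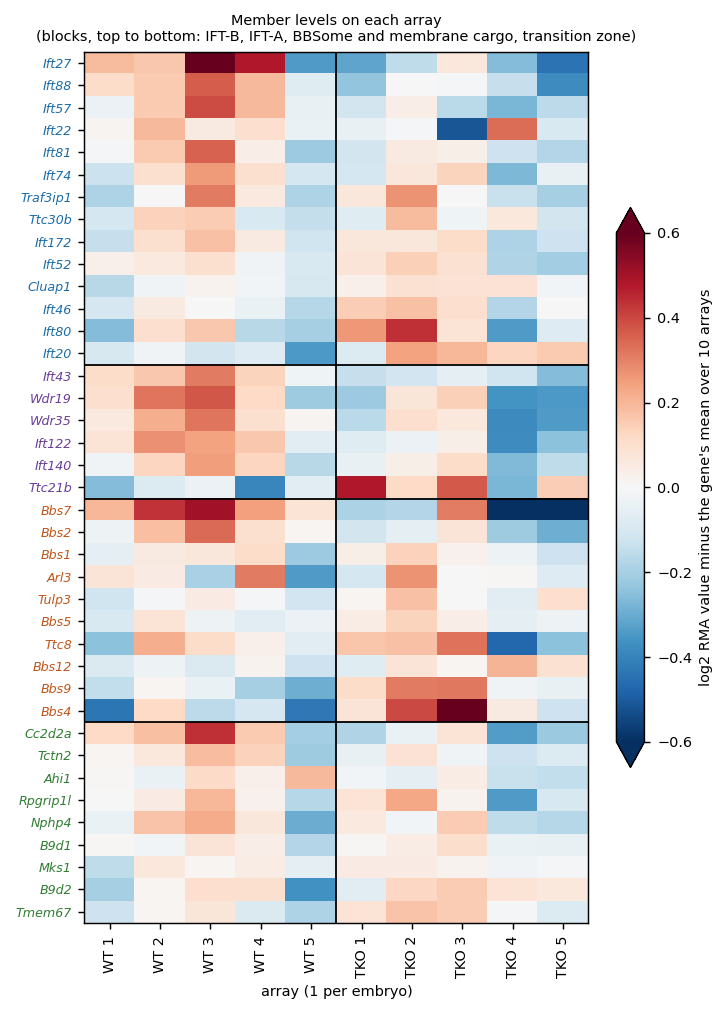
Each row is 1 of the 39 genes and each column 1 array, and the colour gives the log2 value minus the mean of the gene over 10 arrays (red above, blue below, clipped at the ends of the scale). Columns WT 5, TKO 4 and TKO 5 are mostly blue and WT 2, WT 3, TKO 2 and TKO 3 mostly red, except that in the BBSome block WT 3 has 5 of 10 genes above their own mean.

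With the genotype means removed, the 741 pairs of genes had a median correlation of 0.63 over the 10 arrays, and 668 pairs (90.1%) were above 0. The median over all pairs of genes tested was 0.0049, with the middle range from -0.28 to 0.30. IFT-A genes followed each other most closely (median 0.78 over 15 pairs), then the transition zone (0.69), IFT-B (0.66) and the BBSome and membrane cargo (0.55). Medians across complexes ran from 0.57, between the BBSome class and the transition zone, to 0.74, between IFT-A and the transition zone. The highest single values were those of Ift27 with B9d1 (0.96) and Wdr19 with Bbs9 (0.96). All points share the array and its scaling, so these values are a description with no test.

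A few genes were exceptions. Ift22, Bbs12 and Ahi1 did not follow the rest, with correlations of -0.30, -0.16 and 0.11 with the mean of the other members. Ttc21b (0.32) and Arl3 (0.35) followed it weakly. Ttc21b and Bbs12 ran against each other, at -0.91. The closest followers were Ift140 (0.97), Tmem67 (0.96) and Wdr19 (0.95).

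The shared variation ran alongside that of motile axoneme genes. An axoneme score was the mean centred log2 value of 29 genes of dynein arms and their assembly, radial spokes, central pair and related parts. None of these genes is on the list of 42. With genotype means removed, the score correlated with the mean of the 39 genes at r = 0.96 (Spearman's rho 0.96). Without WT 3 and WT 5, the arrays farthest from the median of the score, r was 0.95. By class, r was 0.96 for IFT-B, 0.84 for IFT-A, 0.88 for the BBSome and membrane cargo and 0.97 for the transition zone. Of the 39 genes, 37 had a correlation with the score above 0, where 7506 of all 16635 genes tested did. The median over all genes tested was -0.063. The score itself ran from -0.24 to 0.30 in WT and from -0.21 to 0.075 in TKO (exact two-sided permutation p = 0.246 for its difference of -0.14).

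With that score in the model, 3 members were called, all higher: Bbs4 at 0.67, Bbs9 at 0.40 and Ift20 at 0.30 (limma adjusted p = 0.00374, 0.0115 and 0.04). In that fit 6.26% of all genes were called (5.16% higher and 1.09% lower), and Ift43, at -0.21, was not (adjusted p = 0.0528). The axoneme genes themselves included 2 that fell in TKO, Cfap43 (-0.55) and Drc3 (-0.39), and 27 that did not pass, with a median of -0.19. A value relative to the score is thus relative to genes whose own median lay below 0.

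**Figure D5:**
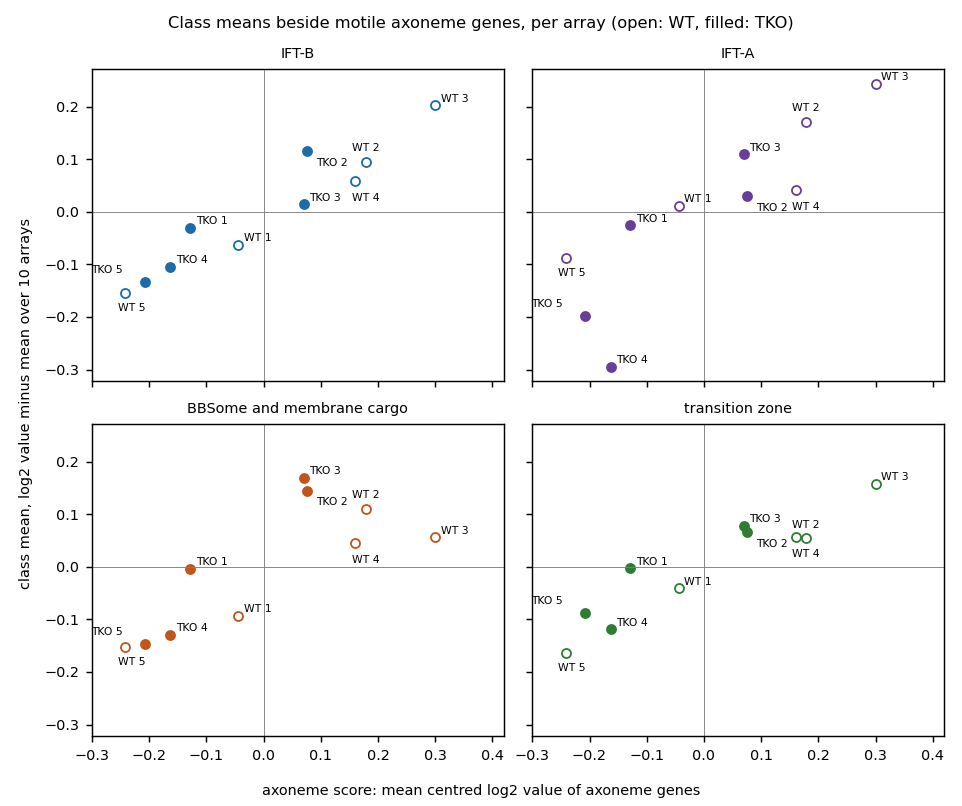
For each array, the mean centred log2 value of each class (vertical axis) is plotted against the axoneme score (horizontal axis), open for WT and filled for TKO. The score is lowest in WT 5 and highest in WT 3; in the BBSome and membrane cargo WT 3 (0.056) lies below WT 2, TKO 2 and TKO 3 (0.11, 0.14 and 0.17).

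Genes of the same machinery outside the list of 42 were read from lists; over all genes tested, 4.39% were called higher and 1.12% lower. Of 12 tested further IFT genes and IFT motor genes, Tctex1d2, a light chain of the dynein that drives return traffic, rose (0.29, adjusted p = 0.0325 in limma), Wdr34, an intermediate chain of the same dynein, fell (-0.42, adjusted p = 0.0386), and 10 did not pass. Their levels were 10.59 ± 0.10 in WT and 10.93 ± 0.12 in TKO for Tctex1d2, and 8.92 ± 0.20 and 8.50 ± 0.10 for Wdr34 (SD, n = 5 each). Of 9 further BBSome and cargo genes, Lztfl1, which restrains the entry of BBSomes into cilia, and Unc119b, a carrier of lipid-modified ciliary proteins, rose (0.30 and 0.42, limma adjusted p = 0.0451 and 0.0323), and 7 did not pass. Of 13 further transition zone genes Tmem138 rose (0.35, limma adjusted p = 0.0474) and 12 did not pass, among them Cep290, the strut of the transition zone, at -0.36 and Cspp1 at 0.26. These calls are from the fit to all 10 arrays with sex in the model. How they hold with an array left out or a score in the model is not given here.

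None of 5 tested RFX factors and Foxj1 passed. Foxj1, the regulator of motile cilia, was at 0.21 (limma adjusted p = 0.0785), Rfx2 at -0.29 and Rfx3 at -0.020. None of 11 tested genes of the Hedgehog pathway, which signals through primary cilia, passed either. The smallest p there were those of Gli2 (-0.34, limma adjusted p = 0.125) and Sufu (0.21, adjusted p = 0.128). The genotypes of Sufu did not overlap, nor did those of Tctex1d2 and Lztfl1 above. The same held, higher in TKO, for 5.54% of all genes tested. Lower in TKO without overlap were Cfap43 and Drc3 of the axoneme genes and the epithelial marker Grhl2 (-0.21, limma adjusted p = 0.0702). This held for 2.07% of all genes tested.

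Markers were read to see what the captures held. All 12 measured epithelial markers lay above the filter on dim genes, with Krt8 at 11.57 ± 0.02 in WT and 11.60 ± 0.07 in TKO, and none passed. Olfactory neurons bear cilia too, and their 13 markers had a mean level of 5.92 to 7.45 in WT and 5.80 to 6.93 in TKO, with Omp, which defines mature olfactory neurons, at 6.69 ± 0.59 and 6.37 ± 0.52 (SD, n = 5 each) and none passing. Mesenchyme markers were present too, at a mean level of 7.23 to 8.34 in WT and 6.78 to 8.44 in TKO. Among them Col1a1 was at 10.81 ± 1.1 and 10.63 ± 1.3 (SD, n = 5 each). It ranged from 9.14 to 12.04 over WT arrays and from 8.80 to 11.79 over TKO arrays. Endothelial markers were lower, at a mean level of 4.68 to 5.55 in WT and 4.60 to 5.255 in TKO. Of 6 lists of non-epithelial markers, all had median changes below 0, from -0.036 for glia to -0.72 for skeletal muscle. Col3a1 of mesenchyme and Tnnt3 of muscle fell (-0.48 and -1.01), and the other tested markers of these lists did not pass. The mean of the 6 list scores ran from -0.47 to 0.42 in WT and from -0.52 to 0.23 in TKO (exact two-sided permutation p = 0.365). With genotype means removed it correlated with the mean of the 39 genes at -0.33. By class this was -0.12 for IFT-B, -0.48 for IFT-A, -0.53 for the BBSome and membrane cargo and -0.19 for the transition zone. Bbs4, Bbs7 and Bbs9 were at -0.61, -0.62 and -0.55, and Ift43 and Ift20 at -0.041 and 0.015. With the mean of the list scores in the model no member was called, where 0.83% of all genes were (0.715% higher and 0.114% lower). In that fit Bbs7 was at -0.75 and Ift43 at -0.34, while Bbs4 and Bbs9 were at 0.17 and 0.11.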

How the data were processed

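RNA of 10 laser-captured samples from formalin-fixed embryos was measured, 1 array each. The authors deposited log2 values, normalized by RMA per the labels; the submitters' processing notes name Affymetrix Expression Console, with no version. Of 41345 probe sets, 23521 had 1 gene symbol, 1814 several and 16010 none. The filter on dim genes dropped those with a mean under 4.58 (log2), which is the 25th percentile of all genes. TKO was compared with WT in limma 3.58.1 (R 4.3.3) with sex in the model and eBayes variances that follow the mean level; p-values are two-sided and adjusted by Benjamini-Hochberg over 16635 genes. Simulated arrays used the means and variances of these genes, drawn independently and with no sex effect, with 200 of 16635 genes changed per run. Log2 changes of 0.25, 0.5 and 1 were called in 6.0%, 55.0% and 91.6% of changed genes. The adjusted p depends on how many genes change, so these shares need not hold in the real arrays. Means and SDs are not adjusted for sex. Exact permutation tests used all 252 assignments of the arrays, and correlations used values with genotype means removed.

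The members and lists were chosen with earlier results of these data known. The genes named were every member that passed or did not overlap, the 5 with the smallest p in IFT-B, IFT-A, the BBSome class and the transition zone, and from each pathway list those that passed or the 2 with the smallest p. Further genes were named to account for every member, and Cep290, Cspp1 and Rfx3 after their values were seen. Alternatives covered sex, the replicate number, filters, scalings, variance models, array weights, the mean of probe sets, females only, 2 covariates and each array left out. Figures were drawn with matplotlib 3.10.9.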

Additional observations from a re-analysis of the deposited data

Results flagged for a closer look

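In 78 sets of 5 arrays, 1 per genotype for each of the 39 measured genes, 1 array stood far from the others of its genotype. Ift20 in WT 5 was at 10.53, and the other WT arrays lay between 10.76 and 10.85. Chance gives about 1 such set in 20.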

How the results depend on the processing

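The share of all genes past the same threshold stands in parentheses. Members called higher numbered 0 (4.39%), then 2 with the replicate block (4.63%), 3 with the axoneme score in the model (5.16%), and 0 to 1 with each array left out (1.15% to 5.33%). Members called lower numbered 1 (1.12%), then 4 with the replicate block (1.7%) and 2 after quantile normalization (1.31%). They numbered 0 after median centring (0.727%), without the intensity trend (1.05%), with females only (0.024%), and with the non-epithelial (0.114%) or axoneme score (1.09%) in the model. With each array left out they numbered 0 to 4 (0.114% to 2.39%), with 4 without WT 5. Members that did not overlap between genotypes numbered 1 (7.6%), then 2 after quantile normalization (7.68%), 0 after median centring (7.26%), 10 with females only (26.5%), and 1 to 5 with each array left out (8.53% to 11.7%), with 5 without WT 5 (11.7%). The median change of IFT went from -0.12 to 0.0086 with females only and 0.020 with the axoneme score, and ran from -0.15 to 0.0086 with each array left out, the last without WT 3. That of the transition zone went from -0.039 to 0.074 with females only and 0.079 with the axoneme score, and ran from -0.076 to 0.074 with each array left out, the last again without WT 3, a fit that takes the genotype effect from the females. The median of the BBSome and membrane cargo stayed between -0.015 and 0.10, within the spread between arrays. Of 460 values of the 20 members named by rule, 1 changed sign, Tctn2 with the axoneme score (0.0035), 14 lost a call, all of Ift43, and 13 gained one. Those 20 had the smallest p of their class, a choice that favours a stable sign, so this count does not describe the other members. Several of these did change sign with females only, among them Ift140 (-0.13 to 0.015), Nphp4 (-0.039 to 0.13) and Arl3 (0.043 to -0.079). The cause was not tested. The deviations of samples with the same replicate number correlated at 0.379 for replicate 4 and at -0.127 to -0.059 for the others, over all genes. Litter is not stated in the labels, so whether the replicate number marks a pairing cannot be told. With the replicate block Bbs4 and Bbs9 were called higher and Ift27, Ift43, Ift88 and Bbs7 lower. Levels are given without a detection call, so the precision at low signal is unknown here.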
